A study of Mus musculus with 6 samples.

Results

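Histone genes of mouse embryonic fibroblasts (MEFs) were examined by class after treatment with MASM7, a small molecule that activates the mitofusins, or MFI8, a small molecule that inhibits them. Mitofusins are the outer-membrane GTPases that carry out fusion of mitochondria. The set held the 22 genes, of 55291 listed, whose symbol matched a fixed name pattern for histones of the H1, H2A, H2B, H3 and H4 families and that had at least 10 counts in each of the 6 libraries. The pattern leaves out some histones, such as Macroh2a1, H2aj and H2aw. A total of 79 symbols matched it once 5 pseudogene symbols were left out, so that 57 symbols were not members. Because the members were chosen by their counts, their levels are given as a description. All 22 members passed the filter on low counts used for testing.

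Polyadenylated RNA of wild-type MEFs was sequenced in 3 groups of 2 libraries each: vehicle, MASM7 and MFI8. The series description calls the libraries of a group independent replicates, and a single dose and duration of each compound are stated with the published experiment but not in the labels, and are not used here. How many isolates of MEFs the libraries came from is not given in the sources used here. With 2 libraries per group, p-values measure only the spread between these libraries. The fit estimated that spread over all groups together and with information shared across genes. Totals were 22791792 to 30677751 counts, 20599 to 21558 genes had counts in a library, and factors of the trimmed mean of M-values (TMM) normalization were 0.991 to 1.01. Of 13 fibroblast markers, 10 reached a transcripts-per-million (TPM) value of 1 in every library, with Thy1, Lum and Postn below it. None of 6 epithelial, 4 endothelial, 4 muscle or 3 liver markers reached 1 TPM in every library, whereas Cd68 of 6 leukocyte markers and Nes and Tubb3 of 4 neural markers did. The summed TPM of the fibroblast markers was 4226 to 5335.

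Core histones H2A, H2B, H3 and H4 form the protein spool around which DNA is wound, and linker histones of the H1 family bind the DNA where it enters and leaves that spool. Replication-dependent histone genes are transcribed during S phase, mostly lack introns and lie in clusters, and their mRNAs usually end in a stem-loop bound by the stem-loop binding protein (SLBP) rather than in a poly(A) tail. Variant histones such as H2A.Z, H2A.X and H3.3 are made throughout the cell cycle, mostly from polyadenylated mRNAs with introns, and are put into chromatin independently of replication by their own chaperones. Selection for poly(A) therefore captures both kinds unequally, and the values below are levels of the captured RNA.

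By symbol the members fell into 4 linker genes of 10 listed, 13 replication-dependent core genes of 60, and 5 variant core genes of 8; the remaining symbol, H3f3aos, is antisense to H3f3a. The linker members were H1f0, H1f2, H1f4 and H1f10, of which H1f2 and H1f4 belong to the replication-dependent group H1f1 to H1f5. Of the 57 other symbols, 26 were tested with fewer than 10 counts in some library, 22 had counts but were not tested, and 9 had no count. Just inside the threshold stood H2bc9, with counts of 13 and 21 in the vehicle libraries, 12 and 16 with MASM7 and 10 and 16 with MFI8, and H4c14, with a lowest count of 11. Just outside stood H1f3, with counts of 10 and 13, 9 and 13, and 17 and 20 in the same order, and H1f1, with counts of 16 and 11, 11 and 16, and 9 and 17.

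All 22 members were matched by symbol or older symbol to 1 gene of the GENCODE vM21 annotation (mouse build GRCm38). H1f2 and H1f4 and 11 of the 13 replication-dependent core members lie on chromosome 13, and the other two, H2bc21 and H4c14, on chromosome 3. All 4 linker members and 12 of the 13 replication-dependent core members have a single exon, the exception being H2bc4 with 2. Among the variants only H2ax has a single exon. The annotated 3′ ends were searched for the histone stem-loop, written as a stem of 6 bases opening with GG and with pyrimidines at positions 3 and 6, a loop of 4 bases opening with TT, and the exact reverse complement of the stem. It was found behind the stop codon in H1f2, H1f4, 10 of the 13 replication-dependent core members and, among the 5 variants, in H2ax. It was not found in H1f0 or H1f10, nor in the core members H2bc4, H2bc21 and H3c8, which were classed as replication-dependent by symbol alone. The 16-base elements are shown because they usually mark replication-dependent histone mRNAs. Capitals mark the stem, letters are those of DNA, and all are read 5′ to 3′ from the annotated transcripts.

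H1f2, H1f4, H2ac8, H2bc8 and H2bc9: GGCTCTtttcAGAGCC
H2bc12 and H3c3: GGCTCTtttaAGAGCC
H4c2 and H4c11: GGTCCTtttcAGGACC
H4c9 and H4c14: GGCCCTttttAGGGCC
H4c4: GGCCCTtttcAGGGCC
H2ax: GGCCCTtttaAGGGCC

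One form was shared by H1, H2A and H2B members, and the 5 H4 members carried forms that no member of another family had. In most replication-dependent members the annotated transcript ran on past the element, by 840 bases in H1f2, 1153 in H1f4, 330 in H4c9 and 1214 in H2bc9, whereas it ended 30 bases behind it in H2bc12 and 28 bases behind it in H4c2. Of the 64 replication-dependent linker and core genes matched to the annotation, 17 had more than 100 annotated bases behind the element, and these 17 held 47.9% of the 6198 counts of all 64 over the 6 libraries. Among the 15 replication-dependent members, 9 had such a tail and held 59% of 3974 counts. A polyadenylation signal (AATAAA or ATTAAA) stood in the last 50 bases of an annotated transcript in all 5 variants, in H1f0, H1f10 and H1f2, and in 5 of the 13 replication-dependent core members. The gene lengths behind the deposited TPM, recovered from counts and TPM, equalled the exonic lengths of GENCODE vM21 for all 22 members, so that the level of H1f2 is per 1560 bases with that tail included.

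Of the 22 members, 18 had exactly 1 promoter in the RefSeq table (GRCm38.p6), taken as 250 bases before to 50 after the start. H2ax, H2bc4, H2bc21 and H4c14 did not have exactly 1 and were left out. The window was searched on both strands for the TATA box, spelled TATAAA, and for the CCAAT box. It was also searched for the H1 box of linker genes, spelled AAACACA, and for the octamer core of H2B genes, spelled TTTGCAT. Both H1f2 and H1f4 held AAACACA and CCAAT, and neither H1f0 nor H1f10 held any of the motifs. AAACACA stood in 7.18% of all 32851 promoters of the table, in 4 of the 5 replication-dependent linker genes and in 4 of the 44 replication-dependent core genes with exactly 1 promoter there. It stood in 0 of the 10 core members of that class and in 1 of the 4 variant members, H3f3a. CCAAT stood in 37.4%, TATAAA in 13.6% and TTTGCAT in 4.63% of all promoters, against 7, 6 and 3 of those 10 members. Of the 4 variant members, 4 held CCAAT and 1, H3f3b, held TATAAA and TTTGCAT, so these motifs do not set the classes apart here. The 250 bases before the start of H1f2, the linker gene described at most length below, are shown beside those of H1f4, H1f0 and H2bc8, with capitals for the motifs of either strand and each read 5′ to 3′ on the gene's strand. They are chr13:23738557-23738806 (plus strand) for H1f2, chr13:23622559-23622808 (minus) for H1f4, chr15:79027962-79028211 (plus) for H1f0 and chr13:23571150-23571399 (plus) for H2bc8. A match is a description of letters, not of binding.

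H1f2: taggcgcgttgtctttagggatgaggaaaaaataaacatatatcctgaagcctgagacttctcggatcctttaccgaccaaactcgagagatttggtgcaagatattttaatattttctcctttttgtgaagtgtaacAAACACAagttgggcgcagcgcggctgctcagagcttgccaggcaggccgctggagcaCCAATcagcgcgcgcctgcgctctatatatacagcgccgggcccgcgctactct
H1f4: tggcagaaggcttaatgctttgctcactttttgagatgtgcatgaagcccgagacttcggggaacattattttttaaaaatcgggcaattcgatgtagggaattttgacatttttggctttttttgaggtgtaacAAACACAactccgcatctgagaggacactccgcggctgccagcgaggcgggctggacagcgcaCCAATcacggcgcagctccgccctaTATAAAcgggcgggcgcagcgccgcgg
H1f0: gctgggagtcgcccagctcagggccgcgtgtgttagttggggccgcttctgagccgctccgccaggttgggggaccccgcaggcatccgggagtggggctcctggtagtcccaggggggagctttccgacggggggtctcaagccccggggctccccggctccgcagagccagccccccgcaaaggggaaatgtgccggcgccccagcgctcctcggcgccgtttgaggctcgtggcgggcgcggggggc
H2bc8: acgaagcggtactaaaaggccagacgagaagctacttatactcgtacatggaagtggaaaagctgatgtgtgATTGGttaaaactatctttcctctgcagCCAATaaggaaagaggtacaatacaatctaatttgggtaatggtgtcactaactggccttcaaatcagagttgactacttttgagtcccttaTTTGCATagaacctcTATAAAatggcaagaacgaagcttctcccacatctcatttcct

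In H1f2 the AAACACA began 112 bases and the CCAAT 54 bases before the start, and in H1f4 the same motifs began 115 and 52 bases before it. H2bc8 held TTTGCAT 58 bases and TATAAA 43 bases before its start. H2ac8, which is transcribed the other way from the same stretch, held both motifs on its opposite strand.

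Levels of the variant core genes lay above those of every replication-dependent core gene, and the linker genes reached into both ranges. In TPM, the measure of RNA per length used here to compare genes, H3f3b (which encodes H3.3) averaged 836 over the 6 libraries and H2az1 (H2A.Z) 832, and their ranges over libraries, 796 to 872 and 809 to 862, overlapped. H2ax (the H2A form phosphorylated at DNA breaks) followed at 391 and the replacement linker gene H1f0 at 296. H3f3a (also H3.3) averaged 60.8, H2az2 (also H2A.Z) 48 and H1f10 33.9. H1f2 at 13.3, H4c9 at 12.8 and H2bc4 at 9.88 TPM led the replication-dependent members, with overlapping ranges, and H2bc9 was lowest at 1.16. Within the 2 pairs of genes for H3.3 and for H2A.Z, H3f3b exceeded H3f3a 12.7-fold to 14.8-fold and H2az1 exceeded H2az2 15.5-fold to 19.8-fold in a library.

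**Figure D1:**
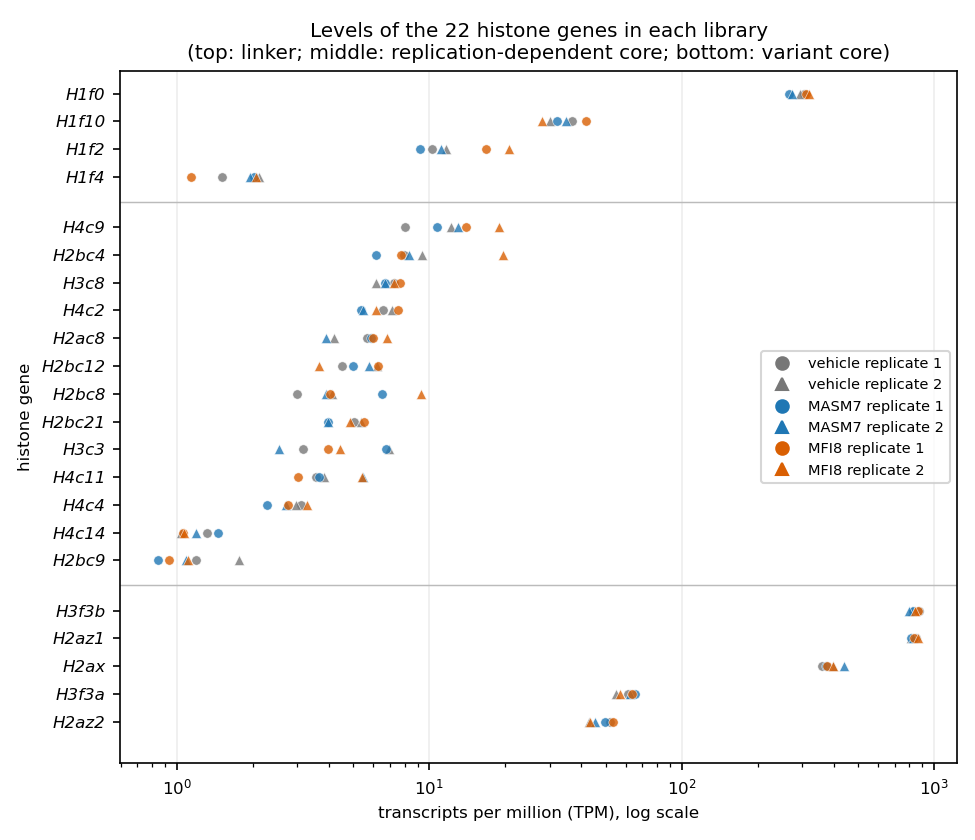
Level of each of the 22 histone genes in each library, in transcripts-per-million on a log scale, ordered by class and mean level; circles are replicate 1 and triangles replicate 2 of vehicle (grey), MASM7 (blue) and MFI8 (orange). The variant core genes lie between 43.1 and 872 TPM and the replication-dependent core genes between 0.846 and 19.7, while the 4 linker genes span from H1f4 to H1f0.

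Summed over all listed symbols, replication-dependent genes supplied 4.78% to 7.59% of the H1 TPM of a library, 2.54% to 2.93% of H2A and 2.77% to 3.71% of H3. For H2B, which has no variant gene under these names, they supplied 100%, and for H4 they supplied 98.4% to 99.3%. The rest of H4 was H4f16, which was put with the variants by its symbol alone, is no member, and carries the stem-loop. The H1 share was highest with MFI8, at 5.87% and 7.59%, against 4.78% and 4.85% with vehicle and 4.90% and 5.34% with MASM7. These shares describe polyadenylated RNA, and in bulk samples fewer cells that express a gene and less RNA per cell cannot be told apart.

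No gene differed between MFI8 and vehicle at an adjusted p of 0.05 in edgeR's quasi-likelihood test, so that 0% of the 14290 genes tested and 0 of 22 histone members were called. At an unadjusted p under 0.05, 1409 genes passed and the DESeq2 Wald test called 48 genes at an adjusted p under 0.05, none of them a member. For MASM7 against vehicle edgeR called 0 genes (0%), 1458 genes had an unadjusted p under 0.05 and DESeq2 called 2. For MFI8 against MASM7 edgeR again called 0 (0%), with 1026 genes at an unadjusted p under 0.05 and 29 by DESeq2. Thus no histone gene rose or fell by the adjusted test in this fit. With no filter on low counts, or with the replicate number as a block although no label ties it to a batch, H1f2 was called with MFI8 against vehicle and against MASM7. Against MASM7, H2bc4 was also called in both of these fits and H1f0 in the latter. The values below give the sizes of the differences with their standard errors (SE) and 95% intervals. Both comparisons against vehicle used the same 2 vehicle libraries.

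Of the linker genes, H1f2 (chr13:23738808-23740367, plus strand; H1.2, a replication-dependent linker histone) gave the clearest difference of any member. Its counts were 104 and 129 in the vehicle libraries, 121 and 152 with MASM7, and 167 and 278 with MFI8. In counts-per-million (CPM) these were 4.56 and 5.13, 4.09 and 4.996, and 7.27 and 9.01, so that both MFI8 libraries lay above the other four. Group means (± SD, n = 2 each) were 4.84 ± 0.401 for vehicle, 4.54 ± 0.640 for MASM7 and 8.14 ± 1.23 for MFI8. The log2 fold change of MFI8 against vehicle was 0.75 (SE 0.17, 95% interval 0.37 to 1.13), a 1.69-fold higher level, with an unadjusted p of 0.00136 and an adjusted p of 0.270 in edgeR's quasi-likelihood test over all genes. Between libraries of the same replicate number the log2 difference was 0.66 and 0.80. Against MASM7 the log2 fold change was 0.85 (SE 0.17, interval 0.47 to 1.22), with an adjusted p of 0.321 in edgeR. MASM7 against vehicle gave -0.09 (interval -0.49 to 0.30). Over the 8 alternatives that kept every library the adjusted p of MFI8 against vehicle in edgeR, DESeq2 or limma lay between 0.00126 and 0.472, and 2 of them put it under 0.05.

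H1f0 (chr15:79028450-79030504, plus strand; H1.0, the replacement linker histone of slowly dividing and differentiated cells) was measured with the narrowest errors of the class. Its level was 179 and 170 CPM in the vehicle libraries, 156 and 162 with MASM7, and 178 and 183 with MFI8. Both MASM7 libraries lay below the other four. The log2 fold change was -0.13 with MASM7 (SE 0.053, 95% interval -0.25 to -0.01), with an unadjusted p of 0.0318 and an adjusted p of 0.477 in edgeR, and 0.05 with MFI8 (interval -0.07 to 0.17). MFI8 exceeded MASM7 by 0.18 (interval 0.06 to 0.30, adjusted p 0.544 in edgeR). Relative to H1f2, H1f0 stood at 29.8-fold and 25.2-fold in TPM with vehicle and 28.9-fold and 24.6-fold with MASM7, against 18.6-fold and 15.4-fold with MFI8. The balance of the replacement gene to the main replication-dependent linker gene was thus lower in both MFI8 libraries than in the other four.

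H1f10 (chr6:87980421-87981637, minus strand; H1.10, a linker histone made outside S phase) had log2 fold changes of 0.03 with MFI8 and 0.02 with MASM7, with intervals of -0.38 to 0.43 and -0.38 to 0.42. Its levels, 12.7 and 10.3 CPM in the vehicle libraries, 11.2 and 12.1 with MASM7, and 14.1 and 9.49 with MFI8, overlapped among all groups. H1f4 (chr13:23620629-23622558, minus strand; H1.4, replication-dependent) had counts of 19 and 29, 33 and 33, and 14 and 34, with log2 fold changes of -0.18 with MFI8 (interval -0.99 to 0.62) and 0.14 with MASM7 (interval -0.63 to 0.91). It shares the AAACACA, the CCAAT and the stem-loop with H1f2, and its interval with MFI8 overlaps that of H1f2. The summed level of H1f2 and H1f4 was 5.39 and 6.28 CPM in the vehicle libraries, 5.21 and 6.08 with MASM7 and 7.88 and 10.1 with MFI8. All 5 replication-dependent linker genes together gave 6.93 and 7.31, 6.36 and 7.40, and 9.41 and 11.9 CPM. Most of that sum was H1f2.

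**Figure D2:**
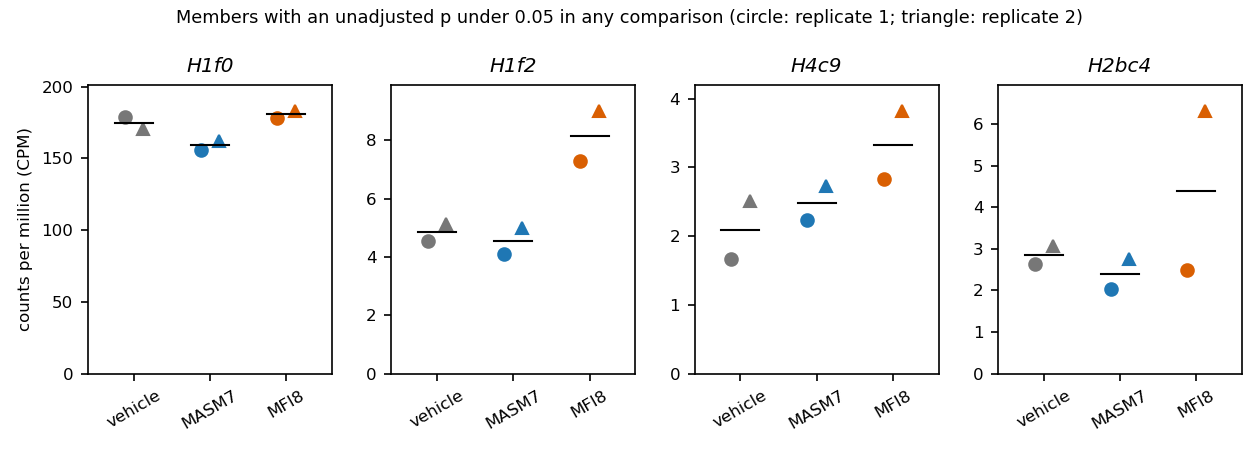
Level in counts-per-million of the 4 members with an unadjusted p under 0.05 in any comparison; circles are replicate 1, triangles replicate 2 and bars the mean of 2 libraries. H1f2 and H4c9 are higher in both MFI8 libraries than in both vehicle libraries, H1f0 is lower in both MASM7 libraries, and H2bc4 is high in 1 MFI8 library, at 6.32 against 2.03 to 3.06 elsewhere.

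Over the replication-dependent core genes, MFI8 libraries were higher than vehicle in 6 of 13 and lower in 7, with a median log2 fold change of -0.03, against a median of 0.00 over all genes tested. Between libraries of the same replicate number, the median difference in log2 CPM was 0.04 and 0.11, with 8 of 13 higher in each, so the class median had no steady sign. Over the 3 classes, 2 of the 22 members, H1f2 and H4c9, were higher at an unadjusted p under 0.05 with MFI8, beside a background of 5.21% of all genes, and 0 were lower, beside 4.65%. Both libraries lay above both vehicle libraries for 3 members (H1f2, H2ac8 and H4c9; background 20.9%) and below for 1 (H2bc9; background 19.3%). The counts without overlap were smaller shares of the 22 members than of all genes.

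Among the replication-dependent H4 genes, which encode the same protein, H4c9 (chr13:22040636-22041362, minus strand) had counts of 38 and 63 in the vehicle libraries, 66 and 83 with MASM7, and 65 and 118 with MFI8. As CPM these were 1.67 and 2.50, 2.23 and 2.73, and 2.83 and 3.82, so that the MFI8 libraries were above the rest and the other groups overlapped. The log2 fold change was 0.68 with MFI8 (SE 0.26, 95% interval 0.10 to 1.26), with an unadjusted p of 0.026 and an adjusted p of 0.437 in edgeR, and 0.24 with MASM7 (interval -0.35 to 0.83). Without vehicle replicate 1 the value with MFI8 was 0.42, and without MFI8 replicate 2 it was 0.43. The difference between the compounds was 0.44 (interval -0.12 to 0.99), or 0.19 without MFI8 replicate 2. H4c2 was at 0.745 and 0.795 CPM in the vehicle libraries, 0.609 and 0.625 with MASM7 and 0.827 and 0.681 with MFI8, with log2 fold changes of -0.32 for MASM7 (interval -1.07 to 0.43) and -0.05 for MFI8. H4c11 gave 0.20 with MFI8 and 0.32 with MASM7, and H4c4 gave -0.03 and -0.26. H4c14 gave -0.17 and 0.18. The intervals of H4c2, H4c4, H4c11 and H4c14 all covered 0.

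Among the H2B genes, H2bc4 (chr13:23684199-23692908, plus strand) had counts of 60 and 77 in the vehicle libraries, 60 and 84 with MASM7, and 57 and 195 with MFI8. A single MFI8 library, replicate 2, was high, at 6.32 CPM, and the other, at 2.48 CPM, lay within the 2.03 to 3.06 CPM of the remaining libraries. The log2 fold change was 0.66 with MFI8 (interval -0.16 to 1.48) and -0.25 with MASM7, and that of MFI8 against MASM7 was 0.91 (interval 0.09 to 1.72), with an unadjusted p of 0.0324 and an adjusted p of 0.650 in edgeR. Without MFI8 replicate 2, the MFI8 value became -0.20 against vehicle and 0.05 against MASM7, and without replicate 1 it became 1.15 and 1.40. The MASM7 value was -0.49 without MASM7 replicate 2 and -0.045 without MASM7 replicate 1. H2bc8 (chr13:23571396-23572013, plus strand) had counts of 12 and 18, 34 and 21, and 16 and 49, and the highest positive log2 fold changes of any member with either compound, 0.91 with MFI8 (interval -0.11 to 1.94) and 0.55 with MASM7 (interval -0.50 to 1.61). Without MFI8 replicate 2 the former was 0.16, and without MASM7 replicate 1 the latter was 0.14. H2bc21 was at 3.77 and 3.97 CPM in the vehicle libraries, 2.98 and 2.99 with MASM7, and 4.01 and 3.53 with MFI8. Both of its MASM7 libraries were lower than all others, with a log2 fold change of -0.38 (interval -0.77 to 0.02, unadjusted p 0.0598 and adjusted p 0.501 in edgeR), against -0.05 with MFI8. H2bc12 gave -0.19 with MFI8 and 0.01 with MASM7.

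The most negative log2 fold changes of any member belonged to H2bc9, at -0.55 with MFI8 (interval -1.43 to 0.33) and -0.59 with MASM7 (interval -1.46 to 0.27), with at most 21 counts in a library. Without vehicle replicate 2 these values were -0.24 and -0.29. H3c8 had counts of 25 and 23, 30 and 31, and 26 and 33, with log2 fold changes of 0.13 for MFI8 and 0.02 for MASM7. Without vehicle replicate 2 the former was 0.0032, and without vehicle replicate 1 it was 0.27. H3c3 had counts of 13 and 31 in the vehicle libraries, 36 and 14 with MASM7 and 16 and 24 with MFI8, and gave -0.30 and -0.12. In CPM these counts were 0.570 and 1.23, 1.22 and 0.460, and 0.697 and 0.778. Libraries of the vehicle and MASM7 groups thus lay further apart than the group means, and those of MFI8 did not. H2ac8, the only H2A member of the replication-dependent class, had counts of 26 and 21, 35 and 24, and 27 and 41. In CPM these were 1.14 and 0.835, 1.18 and 0.789, and 1.18 and 1.33. Its log2 fold changes were 0.36 for MFI8 (interval -0.37 to 1.08) and 0.00 for MASM7. The value with MFI8 was 0.14 without vehicle replicate 2 and 0.59 without vehicle replicate 1. The intervals of these H3 and H2A genes all covered 0.

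**Figure D3:**
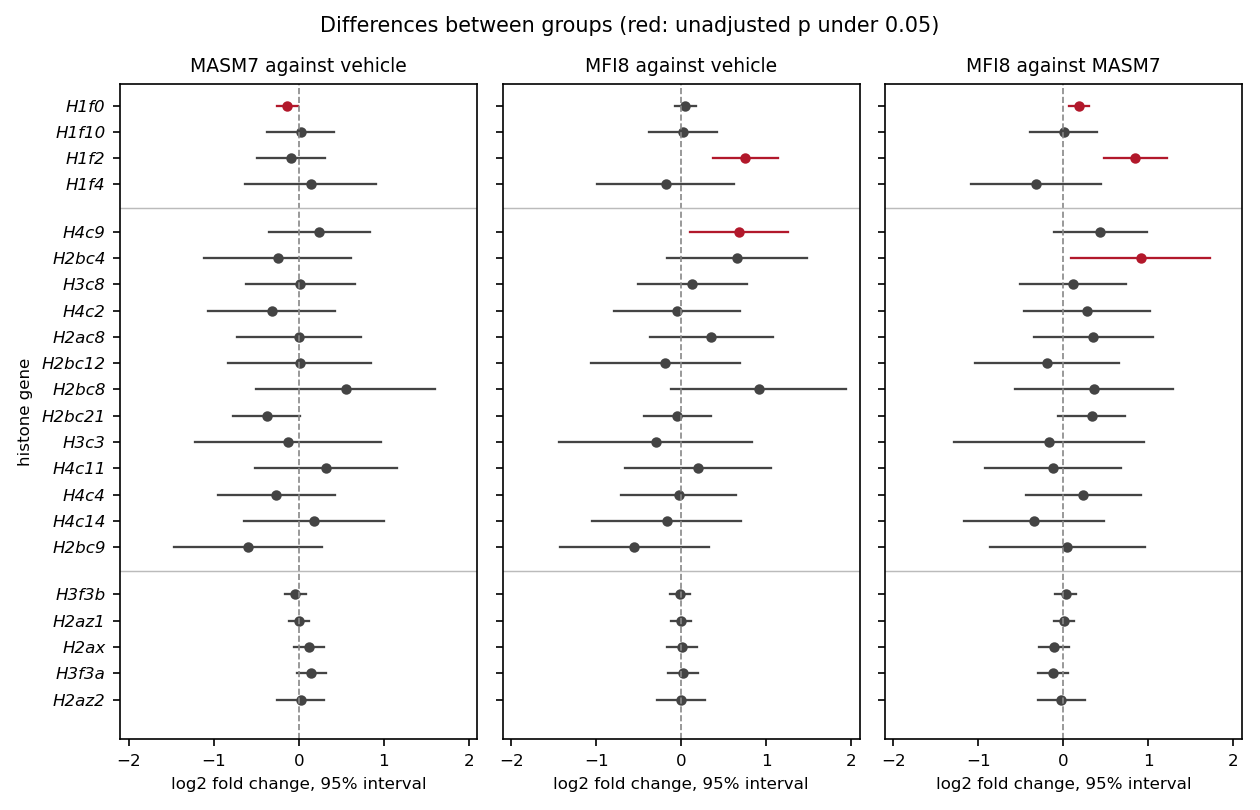
Log2 fold change of each member in the 3 comparisons with its 95% interval from edgeR's quasi-likelihood fit; red marks an unadjusted p under 0.05, and no member passed after adjustment. The intervals of the variant genes at the bottom are narrow around 0, and those of the replication-dependent core genes in the middle are wide.

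For MASM7, the median over the 13 replication-dependent core genes was 0.00 on the log2 scale, with 7 higher and 6 lower. Of the 22 members, 0 were higher at an unadjusted p under 0.05 (background 5.32%) and 1, H1f0, was lower (background 4.88%). Both MASM7 libraries lay above both vehicle libraries for 1 member, H3f3a (background 21.2%), and below for 5, H1f0, H2bc21, H2bc9, H4c2 and H4c4 (background 21.6%). Between the compounds, 3 members were higher with MFI8 than with MASM7 at an unadjusted p under 0.05, H1f0, H1f2 and H2bc4 (background 4.23%), and 0 were lower (background 2.95%). Without overlap, 6 members were higher with MFI8, namely H1f0, H1f2, H2bc21, H3c8, H4c2 and H4c9 (background 19.6%), and 2 were lower, H3f3a and H4c14 (background 19.6%). The median of the replication-dependent core genes in that comparison was 0.23, with 9 higher and 4 lower.

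The variant core genes did not pass the test in any comparison, and their intervals were narrow. H3f3b was at 739 and 682 CPM in the vehicle libraries, 703 and 679 with MASM7, and 716 and 694 with MFI8, and H2az1 at 431 and 404, 411 and 422, and 411 and 425. With MFI8 the log2 fold change was -0.01 for H3f3b (95% interval -0.13 to 0.11), 0.00 for H2az1 (-0.12 to 0.12), 0.01 for H2ax (-0.17 to 0.19), 0.02 for H3f3a (-0.15 to 0.20) and 0.00 for H2az2 (-0.29 to 0.28). The upper bounds of the first 4 lie below 0.20. With MASM7 the largest values of the class were 0.15 for H3f3a (interval -0.02 to 0.32, adjusted p 0.531 in edgeR) and 0.12 for H2ax (interval -0.06 to 0.30). The value of H3f3a ran from 0.065 without vehicle replicate 2 to 0.23 without vehicle replicate 1. H3f3a was at 61.2 and 54.4 CPM in the vehicle libraries, 65.2 and 62.8 with MASM7, and 61.9 and 55.7 with MFI8. H2ax was at 142 and 155, 148 and 174, and 145 and 154 CPM, so that its groups overlapped. H2az2 was at 24.3 and 19.8, 23.3 and 21.4, and 24.3 and 19.7 CPM, also with overlap.

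By class, the linker genes had a median log2 fold change of 0.04 with MFI8 (3 of 4 higher) and -0.04 with MASM7 (2 of 4 higher). The 18 core genes together had a median of 0.00 with MFI8, with 9 higher and 9 lower, and 0.01 with MASM7, with 10 higher and 8 lower. The classes differed in precision. The median SE of the log2 fold change with MFI8 was 0.175 for linker, 0.367 for replication-dependent core and 0.0777 for variant core genes. Over all tested genes of the same names, which adds genes below 10 counts in a library, the median of 34 replication-dependent core genes was 0.23 with MFI8 and 0.09 with MASM7. That wider set was looked at after the members' values were known, and its genes have a median SE of 0.487 with MFI8.

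The summed level of the 13 replication-dependent core members was 15.7 and 18.0 CPM in the vehicle libraries, 15.7 and 16 with MASM7, and 17.1 and 22.8 with MFI8. The high value was MFI8 replicate 2, where H2bc4, without an annotated stem-loop, gave 6.32 CPM, against 2.03 to 3.06 in the other libraries. Over all 60 symbols of the class the same library had 38.7 CPM, against 26.6 to 29.8 in the other libraries. It was the deepest library, with 30677751 counts. The next deepest, MASM7 replicate 2 with 30611501 counts, had 29.1 CPM. The cause of the high value in MFI8 replicate 2 was not tested. MFI8 replicate 2 held the highest CPM of 5 of the 13 replication-dependent core members, 2 of the 4 linker members and 0 of the 5 variant core members, beside 17.1% of all genes tested. The variant class summed to 1397 and 1315, 1350 and 1360, and 1358 and 1348 CPM, with no library apart. The linker class summed to 197 and 187, 172 and 180, and 200 and 203 CPM, lowest in both MASM7 libraries, where H1f0 made up most of it.

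**Figure D4:**
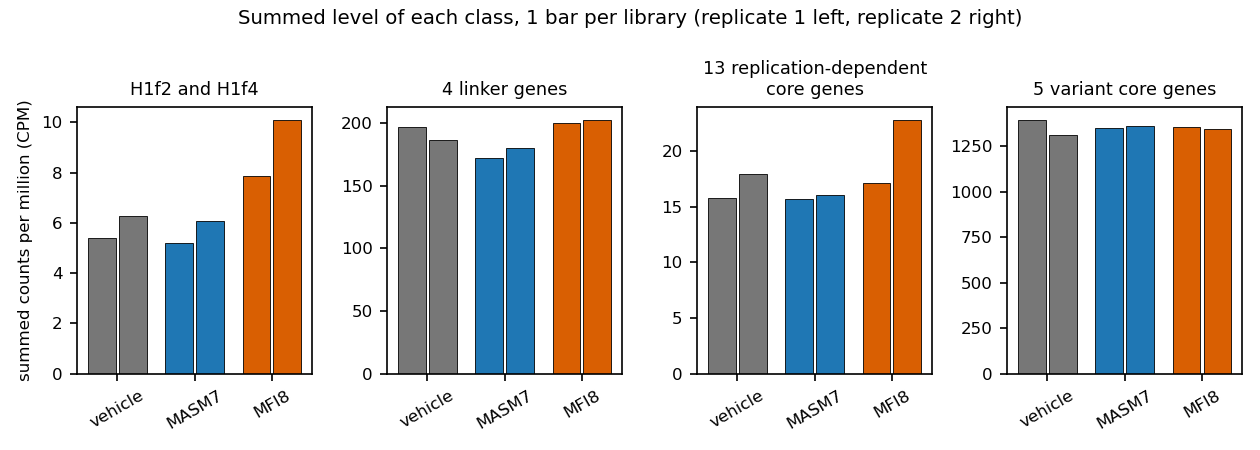
Summed counts-per-million of H1f2 with H1f4, of the 4 linker genes, of the 13 replication-dependent core genes and of the 5 variant core genes, 1 bar per library from 0. H1f2 with H1f4 is higher in both MFI8 libraries, at 7.88 and 10.1, the replication-dependent core sum is high in MFI8 replicate 2 at 22.8, and the variant sum stays between 1315 and 1397.

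Histone genes are near-copies of one another, and how reads matching several genes were counted is not given in the sources used here. Of the 50-base stretches in a member's annotated transcripts, 8.54% for H1f2 and 5.68% for H1f0 occur in another gene's transcripts, on either strand. The share was 28.9% for H4c9, 30.6% for H2bc4, 32.0% for H1f4, 49.7% for H2bc8 and 75.9% for H4c2, and 0% for H2bc21 and H2az2. H2az1 shared 35.4% with 6 other genes and H3f3a 27.1% with 193. The counts of genes with such stretches are uncertain, by an amount that was not tested.

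Of the genes that process and transcribe histone mRNAs, Slbp, which binds the stem-loop, was at 125 and 127 CPM in the vehicle libraries, 123 and 116 with MASM7, and 119 and 116 with MFI8, with log2 fold changes of -0.07 with MASM7 and -0.10 with MFI8. Npat, the coactivator of replication-dependent histone genes, gave -0.14 and -0.09, and Casp8ap2 (FLASH, of the histone locus body) gave -0.11 and -0.06. Of the 20 genes of this list 0 passed the adjusted test in edgeR. At an unadjusted p under 0.05, Lsm11 (of the U7 snRNP) was higher with MFI8 at 0.21 (p 0.0168) and Sympk (of the cleavage complex) higher with MASM7 at 0.13 (p 0.0300), and 0 were lower in either comparison. Over all genes 5.21% were higher and 4.65% lower with MFI8, and 5.32% and 4.88% with MASM7. Zfp473, a zinc finger protein of the U7 snRNP pathway named after its value was seen, had the widest values of the list, at -0.54 with MASM7 (interval -1.58 to 0.51) and 0.71 for MFI8 against MASM7 (interval -0.30 to 1.71), at under 1 CPM in every library. The median of the list was -0.02 with MFI8 and -0.04 with MASM7.

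Of 33 S-phase genes, which mark cells in replication, 0 passed the adjusted test, and the median log2 fold change was 0.00 with MFI8 and -0.01 with MASM7. Pold1 (a DNA polymerase delta subunit) was higher at an unadjusted p under 0.05 with MFI8, 0.22, and with MASM7, 0.21, and Ccna2 (cyclin A2) was lower, at -0.17 and -0.13. Pola1 (DNA polymerase alpha) was lower with MASM7, at -0.16. These were the only S-phase genes at that threshold, beside the same 5.21%, 4.65%, 5.32% and 4.88% of all genes. Some of them passed under an alternative that kept every library. The lowest adjusted p in edgeR, DESeq2 or limma was 0.0181 for Pold1 and 0.0229 for Ccna2 with MFI8. With MASM7 it was 0.0266 for Pold1 and 0.0453 for Pola1, and the highest of each was above 0.05. Of 24 histone chaperone and deposition genes 0 passed the adjusted test; with MFI8 3 were higher and 6 lower at an unadjusted p under 0.05, and with MASM7 2 were higher and 5 lower. The shares of all genes were 5.21% higher and 4.65% lower with MFI8, and 5.32% and 4.88% with MASM7. Cabin1 (of the H3.3 chaperone complex HIRA) was at 97.5 and 91.9 CPM in the vehicle libraries, 106 and 103 with MASM7, and 109 and 110 with MFI8, a log2 fold change of 0.21 with MFI8 (p 0.00373 and adjusted p 0.341 in edgeR) and 0.15 with MASM7. Ubn1, of the same complex, was at 96.5 and 90.3 CPM in the vehicle libraries, 85.3 and 85.4 with MASM7, and 101 and 104 with MFI8, and MFI8 exceeded MASM7 by 0.27 (p 7.7e-04 and adjusted p 0.321 in edgeR). Hira and Ubn2 of this complex were named after their values were seen. Hira gave -0.03 with MFI8 and -0.17 for MFI8 against MASM7, and Ubn2 gave 0.02 and 0.06. Ipo4, an importin that carries H3 and H4, was higher with MASM7 at 0.25. Over the alternatives that kept every library, its lowest adjusted p with MASM7 in edgeR, DESeq2 or limma was 0.0140. The lowest was 0.0120 for Cabin1 with MFI8 and 0.00184 for Ubn1 between the compounds, and the highest of each of these 3 genes was above 0.05. Of the genes that were lower, Dek, a chromatin protein named after its values were seen, was at 359 and 383 CPM in the vehicle libraries, 331 and 323 with MASM7, and 323 and 328 with MFI8. Dek had a log2 fold change of -0.19 with MFI8 (p 0.00438 and adjusted p 0.356 in edgeR) and -0.18 with MASM7 (p 0.00561 and adjusted p 0.466 in edgeR). Among 5 tested histones named outside the pattern, Cenpa, the centromeric H3, was lower with MFI8 at -0.14 (unadjusted p 0.0341), and 0 of the 5 passed the adjusted test; Macroh2a1 gave -0.08 and Macroh2a2 -0.04 with MFI8.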

How the data were processed

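RNA was measured in 6 libraries (Illumina TruSeq, polyA RNA; 2 per group). According to the labels' processing notes and the methods, the authors made reads with bcl2fastq, trimmed them with Trimmomatic, aligned them to GRCm38 (mm10) with STAR and counted them on exons with featureCounts; strand setting and treatment of multiply aligned reads are not given in the sources used here. The authors deposited raw counts per gene, TPM, and a signal of counts divided by DESeq2 size factors, which was not tested.

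Models were fitted to the raw counts with edgeR (version 4.0.16, R version 4.3.3; filterByExpr, TMM, 1 coefficient per group, all 6 libraries), tested by the quasi-likelihood F test and adjusted by Benjamini-Hochberg over 14290 genes; the code was tested on simulated data. SE is the log2 fold change over the root of F. Exact permutation of 2 against 2 libraries cannot give a p below 0.333 and was not used. DESeq2 1.42.0 and limma 3.58.1 on log2(TPM + 1) served as alternatives, beside other filters, scalings and libraries left out. Low counts limit precision: 10 counts equal 0.324 to 0.438 CPM. Named genes are all linker and variant members, the 2 highest of each replication-dependent core family, members with an unadjusted p under 0.05, the 3 largest and 3 smallest fold changes, and up to 3 genes of each other list with the smallest p. The remaining members are given for completeness. The members and lists were chosen with earlier results of these data known. Replicate numbers were not used to pair libraries in the tests, apart from the alternative with a replicate block.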

Additional observations from a re-analysis of the deposited data

How the results depend on the processing

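The number of genes with an adjusted p under 0.05, 0 in each comparison, depended on the setting. It is given for MFI8 against vehicle, MASM7 against vehicle and MFI8 against MASM7 in that order. It was 256, 127 and 168 with no filter beyond 1 count, 48, 2 and 29 in DESeq2, and 8, 14 and 13 in limma on TPM. Fitting only the groups compared gave 1 for MASM7 against vehicle and 2 for MFI8 against MASM7. With the replicate number as a block it was 720, 554 and 439, and H1f2 then passed for MFI8 against vehicle and H1f0, H1f2 and H2bc4 for MFI8 against MASM7. Deviations of same-numbered libraries from their group means correlated at 0.188, 0.152 and 0.165 over 14290 genes, and at 0.508, 0.621 and 0.538 over the 7145 with higher expression, but with only 2 numbers and no label that gives them a shared batch they were not taken as pairs. With no filter, H1f2 passed in both MFI8 comparisons and H2bc4 against MASM7. The cause of these changes was not tested.

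Leaving out 1 library gave 0 to 26, 0 to 2 and 0 to 24 genes, the highest for MFI8 without MFI8 replicate 1, where H2bc4 passed against MASM7. The median log2 fold change then ranged, for MFI8, from 0.039 to 0.16 over linker and -0.0277 to 0.083 over replication-dependent core genes, for MASM7 from -0.10 to 0.0612 and -0.19 to 0.00348, and for MFI8 against MASM7 from 0.0522 to 0.22 and 0.0927 to 0.26. Taking all tested genes of these names, an alternative chosen after seeing the data, gave 0.23, 0.0878 and 0.11 for replication-dependent core genes and 0.18 for linker genes in MFI8 against MASM7. Between libraries of the same replicate number, the medians of these core genes were 0.14 and 0.46, 0.17 and -0.06, and -0.28 and 0.31. The sign thus differed by replicate for MASM7 and for MFI8 against MASM7.

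Values near 0 changed sign. For MFI8, H2az2 became 0.00707 with library size alone, 0.00329 with no filter and 0.0256 in limma, H2az1 -0.0036 with 10 counts in every library and -0.000453 with only the groups compared, and H3f3b 0.0156 in limma. For MASM7, H2ac8 became -0.00791 with library size alone, -0.00209 with the replicate block and -0.0231 in limma, H2bc12 -0.00112 with library size alone, and H2az1 0.017 with no filter. Leaving out 1 library changed the sign with MFI8 of H1f10 (-0.27 to 0.30), H1f4 (-0.71 to 0.14), H2ax (-0.0521 to 0.0776), H2az1 (-0.0428 to 0.0514), H2az2 (-0.16 to 0.15), H2bc12 (-0.58 to 0.18), H2bc21 (-0.13 to 0.0483), H2bc4 (-0.20 to 1.15), H3c3 (-0.73 to 0.38), H3f3a (-0.0591 to 0.11), H3f3b (-0.0684 to 0.0487), H4c11 (-0.31 to 0.52), H4c14 (-0.34 to 0.0196), H4c2 (-0.18 to 0.10), H4c4 (-0.17 to 0.083), Macroh2a2 (-0.12 to 0.0389) and Npat (-0.18 to 0.00947). With MASM7 it changed that of H1f10 (-0.12 to 0.18), H1f2 (-0.24 to 0.0434), H1f4 (-0.0673 to 0.40), H2ac8 (-0.31 to 0.27), H2ax (-0.000763 to 0.23), H2az1 (-0.0479 to 0.0441), H2az2 (-0.12 to 0.17), H2bc12 (-0.19 to 0.25), H3c3 (-0.98 to 0.55), H3c8 (-0.11 to 0.15), H3f3b (-0.10 to 0.019), H4c11 (-0.00172 to 0.58) and H4c9 (-0.0134 to 0.57). Without a change of sign, it moved H1f0 (0.0155 to 0.0879), Ccna2 (-0.23 to -0.11) and Cenpa (-0.18 to -0.0871) with MFI8 by over 1.5 times, and with MASM7 H4c4 (-0.40 to -0.14), H4c14 (0.00796 to 0.37), Slbp (-0.12 to -0.0267), Npat (-0.23 to -0.0614), Casp8ap2 (-0.16 to -0.0587) and Ccna2 (-0.19 to -0.0669). The lowest and highest values of H1f0, H4c14 and Ccna2 came from leaving out vehicle replicate 1 or 2, those of H4c4, Slbp, Npat and Casp8ap2 from MASM7 replicate 1 or 2, and those of Cenpa from MFI8 replicate 1 or 2. In these fits the lone library of a group is assumed to vary like those of the other groups. H1f2 with MFI8 stayed between 0.58 and 0.89 when 1 library was left out. Low counts limit the replication-dependent core genes.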
